A study of Mus musculus with 6 samples.

Results

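The genes described here are 10 members of the ADAMTS family of secreted metalloproteases: Adamts1, Adamts2, Adamts4, Adamts5, Adamts6, Adamts7, Adamts9, Adamts10, Adamts12 and Adamts15. They were taken by symbol from a count table of 25239 rows, which holds 19 ADAMTS genes in all, and all 10 were found. The group was selected on its counts in these same libraries, senescent against quiescent, so that difference is described below for the 10 genes without a test. The samples were mouse primary pulmonary fibroblasts, 3 libraries of cells made senescent with Nutlin 3a and 3 libraries of quiescent cells. Nutlin 3a frees p53 from the ubiquitin ligase Mdm2. The protocol in the labels has RO3306, a Cdk1 inhibitor, for 16 hours, then Nutlin 3a for 48 hours, and last BI-2536 (100 nM), which blocks Plk1 and removes dividing cells, 12 days in all. The same protocol stands on the quiescent samples, and the sources used here do not state what made those cells quiescent. Culture medium held 10% serum, and oxygen was kept at 5%. Strain, age and sex of the mice, and whether replicates are cultures or animals of their own, are not stated either. Any p-value below therefore reflects sample-to-sample spread that may be purely technical.

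ADAMTS proteases are made as inactive precursors, are activated by proprotein convertases such as furin, and cut proteins of the extracellular matrix with a zinc-dependent catalytic domain. Thrombospondin repeats and other domains after it hold the enzyme to its substrates. Members fall into groups by sequence and substrate: the proteoglycanases cut versican, aggrecan and their relatives, the procollagen N-proteinases trim the amino-terminal propeptide of fibrillar procollagens, one pair is tied to fibrillin microfibrils, and another pair cuts cartilage oligomeric matrix protein. TIMP3 is the main tissue inhibitor of several of them. In lung, versican and fibrillar collagen are among the matrix that fibroblasts lay down and turn over.

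Total counts per library were 105947960 to 109706025 in senescent and 93736593 to 104397989 in quiescent libraries. Of these, 79.8% to 82.8% lay in the rows Rn45s, Lars2 and Mir6236, treated here as ribosomal rows. Whether the reads on Lars2 and Mir6236 were ribosomal was not tested. The 10 ADAMTS genes together had 17878 to 19343 counts in senescent and 66340 to 79741 in quiescent libraries. Levels are CPM, counts scaled to the TMM-adjusted gene total of the library, ribosomal rows included, which makes them low. Cdkn1a and Mdm2, targets of p53, averaged 65.9 and 74.3 CPM in senescent libraries, against 29.9 and 38.5 CPM in quiescent libraries. Mki67, a marker of dividing cells, averaged 10.4 CPM in senescent and 52.6 CPM in quiescent libraries. The 10 fibroblast markers summed to 3804 to 4191 CPM in senescent and 3439 to 3686 CPM in quiescent libraries, with 4 higher and 4 lower. For markers, higher and lower mean an adjusted p under 0.05 in edgeR's quasi-likelihood test. By it 36.7% of the 14065 tested genes were higher and 37.8% lower, so nothing is read from these marker counts. Fn1 alone averaged 1872 CPM in senescent and 974 CPM in quiescent libraries, while Pdgfra averaged 80.4 and 219 CPM. Of the markers of other cell types none was at 0 in every library, but some were near it. Ptprc, a macrophage marker, had 9, 2 and 7 counts in senescent and 1, 0 and 2 in quiescent libraries. The 9 smooth muscle and pericyte markers summed to 222 to 341 CPM in senescent and 99.8 to 123 CPM in quiescent libraries, with 8 higher and 1 lower. The 8 macrophage markers summed to 10.7 to 14.0 CPM in senescent and 3.94 to 4.23 CPM in quiescent libraries, and the 5 that were tested were higher. The summed levels in senescent and quiescent libraries were 11.3 to 16.8 and 5.68 to 5.92 CPM for chondrocyte, 11.0 to 13.2 and 6.80 to 7.68 CPM for endothelial, 10.3 to 12.7 and 7.48 to 8.65 CPM for mesothelial, and 0.570 to 0.826 and 0.339 to 0.415 CPM for epithelial markers. Of the tested chondrocyte markers 1 was higher and 1 lower, and of the endothelial ones 2 were higher and 1 lower. Among mesothelial markers 1 was higher and 2 were lower, and the 1 tested epithelial marker was higher. Much of the senescent sums lay in Sox9 (chondrocyte), Flt1 (endothelial), Krt19 (mesothelial) and Cd14 (macrophage). Krt19 averaged 6.6 CPM in senescent and 0.847 CPM in quiescent libraries, while the endothelial Tek averaged 0.534 and 3.40 CPM. The part of other cell types in the ADAMTS values was not tested. In bulk samples fewer cells of a type and less RNA per cell cannot be told apart.

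The 10 genes did not share one direction. In 6 of them (Adamts1, Adamts2, Adamts5, Adamts9, Adamts10 and Adamts15) every senescent library lay below every quiescent library, in 2 (Adamts4 and Adamts6) every senescent library lay above, and in Adamts7 and Adamts12 the groups overlapped. Over the 14065 genes tested, groups did not overlap in 78.3%, with 39.9% below and 38.4% above. By the threshold used for all genes (adjusted p under 0.05 in edgeR's quasi-likelihood test), 6 were lower and 1 higher, where the whole table had 37.8% lower and 36.7% higher. These counts follow from the choice of the genes, and nothing is read from them. The 10 levels summed per kilobase to 22.4 ± 1.19 CPM per kb in senescent and 73.5 ± 3.29 CPM per kb in quiescent libraries (SD, n = 3 each), a sum 3.28-fold lower in senescent libraries.

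**Figure D1:**
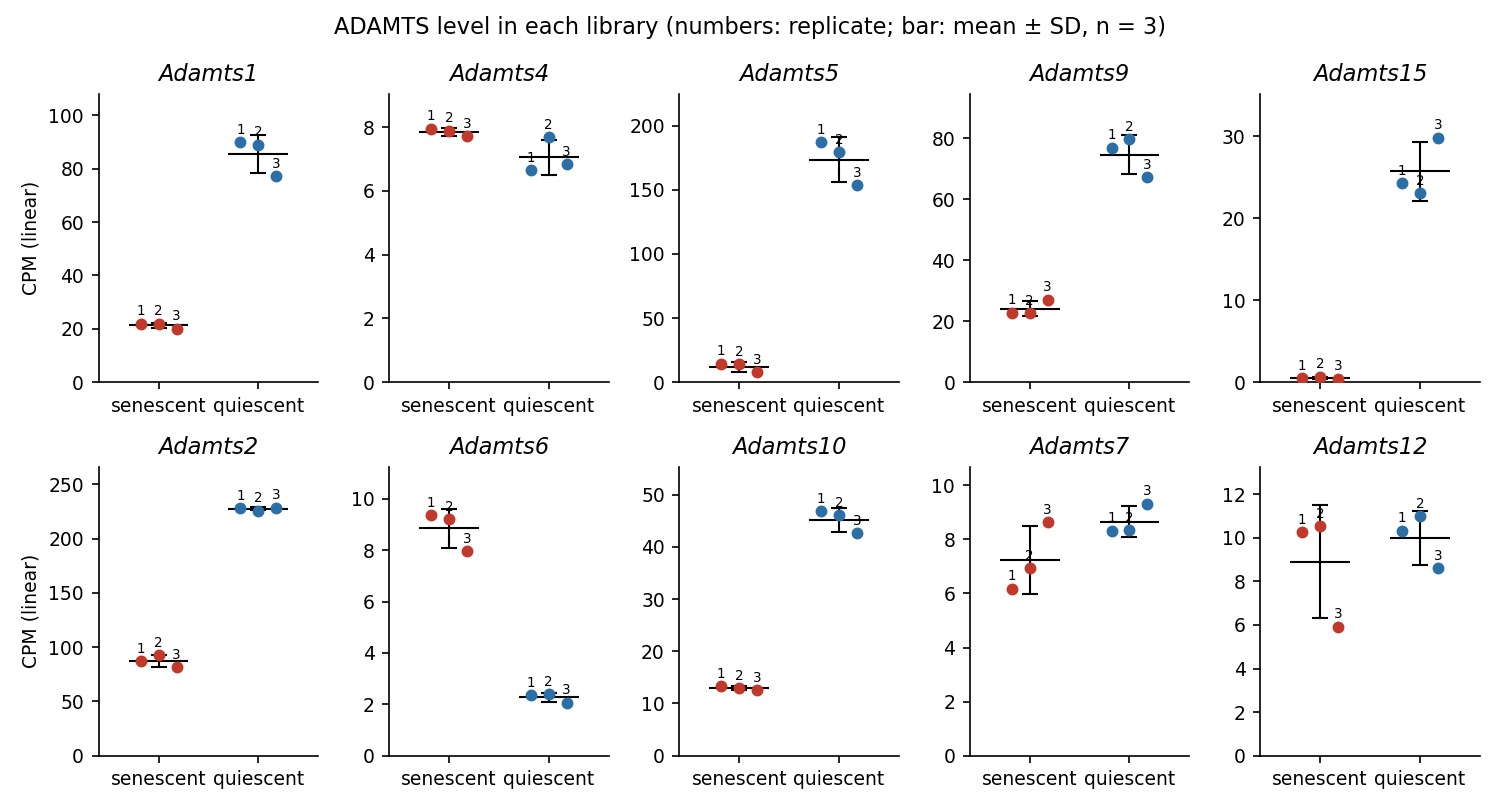
CPM of each of the 10 ADAMTS genes (vertical axes, linear and different for each gene) in the 3 senescent and 3 quiescent libraries; points are libraries with their replicate number, the horizontal line is the mean and the bar the SD. Adamts5 and Adamts15 are close to the axis in senescent libraries, at 7.67 to 14.5 CPM and 0.437 to 0.671 CPM, and Adamts7 and Adamts12 overlap between the groups.

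Among the proteoglycanases, Adamts15 and Adamts5 had the lowest fold changes. Adamts15 (chromosome 9, 30899155 to 30922452, minus strand, GRCm38) encodes a versican-cleaving enzyme. It had 51, 60 and 45 counts in senescent libraries and 2582, 2734 and 3164 counts in quiescent libraries, which is 0.511, 0.671 and 0.437 CPM against 24.3, 23.1 and 29.9 CPM. All senescent libraries were thus far below all quiescent ones. The log2 fold change, with its standard error (SE), was -5.59 (SE 0.15), or 48.0-fold lower, and 9 of the 14065 tested genes had a lower one.

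Adamts5 (chromosome 16, 85856173 to 85901828, minus strand), an aggrecanase and versicanase, had 1445, 1279 and 789 counts in senescent libraries and 19904, 21255 and 16274 in quiescent libraries. In CPM this was 14.5, 14.3 and 7.67 in senescent libraries, against 187, 179 and 154 in quiescent libraries. Senescent replicate 3 was at 0.533 times the mean of the other senescent libraries, and the groups were far apart with or without it. The log2 fold change was -3.84 (SE 0.25), 14.3-fold lower, and -3.59 without senescent replicate 3.

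Adamts1 (chromosome 16, 85793827 to 85803113, minus strand), which cuts versican and aggrecan and is also known as an angiogenesis inhibitor, had 21.9, 21.9 and 20.1 CPM in senescent libraries and 90.0, 89.0 and 77.1 CPM in quiescent libraries. The replicates of each group were close to each other and the groups did not overlap. The log2 fold change was -2.005 (SE 0.07), 4.01-fold lower. Adamts9 (chromosome 6, 92772699 to 92943492, minus strand), another versicanase, had 22.8, 22.5 and 27.1 CPM in senescent libraries and 76.8, 79.8 and 67.3 CPM in quiescent libraries. Its highest senescent value, in replicate 3, was still well under the lowest quiescent one. Exons of A730049H05Rik and Gm15737, which are no rows of the table, overlap those of Adamts9 on the other strand. The log2 fold change was -1.63 (SE 0.09), 3.09-fold lower.

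Adamts4 (chromosome 1, 171250421 to 171260637, plus strand), the other main aggrecanase, went against these. It had 7.96, 7.89 and 7.72 CPM in senescent libraries and 6.65, 7.68 and 6.83 CPM in quiescent libraries. The senescent values lay just above the highest quiescent value, with a log2 fold change of 0.15 (SE 0.07). Scaling by library totals without TMM turned its sign, to -0.15. Adamts5 over Adamts4, per kilobase, was 0.811, 0.808 and 0.443 in senescent libraries, against 12.6, 10.4 and 10.0 in quiescent libraries. Transcripts of Adamts5 were thus fewer than those of Adamts4 in each senescent library and many times more in each quiescent one.

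The ADAMTS genes of the table include 2 pairs of direct neighbours with no protein-coding gene between them in GENCODE M21. Adamts1 and Adamts5 lie one after the other on the minus strand of chromosome 16, 53.1 kb apart, and both were lower. Adamts15 and Adamts8 lie head to head on chromosome 9, with 20.1 kb between their starts. Adamts8 is also a proteoglycanase gene, and it was not among the 10. It had 14, 13 and 14 counts in senescent libraries and 161, 183 and 179 in quiescent libraries and fell in senescent libraries by 3.48 on the log2 scale, with a standard error of 0.16 (edgeR adjusted p = 4.1e-09). An antisense gene that is not a row of the table overlaps its exons.

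RefSeq promoter sequences (GRCm38.p6) were at hand for 4 of the 10 genes, Adamts1, Adamts2, Adamts9 and Adamts12. All that were at hand are shown, and the direction of the genes did not decide the choice. The first 3 of them were lower and the fourth had overlapping groups. Each line gives the 250 bases before the annotated start, 5′ to 3′ on the strand of the gene, and capitals mark GC boxes (GGGCGG or its reverse complement) and the TATA box TATAAA. The windows are chr16:85803114-85803363 (minus strand) for Adamts1, chr6:92943535-92943784 (minus strand) for Adamts9, chr11:50601835-50602084 (plus strand) for Adamts2 and chr15:11064523-11064772 (plus strand) for Adamts12.
Adamts1: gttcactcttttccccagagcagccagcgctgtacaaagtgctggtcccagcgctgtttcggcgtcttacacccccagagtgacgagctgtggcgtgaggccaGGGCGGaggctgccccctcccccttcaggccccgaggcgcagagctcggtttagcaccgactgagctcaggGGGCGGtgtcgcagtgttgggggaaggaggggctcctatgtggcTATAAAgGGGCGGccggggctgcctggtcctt
Adamts9: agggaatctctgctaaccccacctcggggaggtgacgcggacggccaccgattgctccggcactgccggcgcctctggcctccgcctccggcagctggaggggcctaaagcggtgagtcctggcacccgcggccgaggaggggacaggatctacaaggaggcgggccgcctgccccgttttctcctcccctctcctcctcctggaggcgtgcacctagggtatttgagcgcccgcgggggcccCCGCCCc
Adamts2: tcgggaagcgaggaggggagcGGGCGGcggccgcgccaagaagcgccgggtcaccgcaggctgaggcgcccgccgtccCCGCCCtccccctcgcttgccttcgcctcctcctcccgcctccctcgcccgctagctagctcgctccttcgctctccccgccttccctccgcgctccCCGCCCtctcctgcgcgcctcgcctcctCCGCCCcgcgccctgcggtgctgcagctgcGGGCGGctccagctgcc
Adamts12: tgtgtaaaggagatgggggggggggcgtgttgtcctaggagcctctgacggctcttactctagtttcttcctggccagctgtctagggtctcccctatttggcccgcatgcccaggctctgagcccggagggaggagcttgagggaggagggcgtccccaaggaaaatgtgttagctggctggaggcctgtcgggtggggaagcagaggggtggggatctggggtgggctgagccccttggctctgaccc

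The Adamts1 window held 3 GC boxes and a TATA box 32 bases before the start, the Adamts2 window 5 GC boxes, the Adamts9 window 1 and the Adamts12 window 0. Of 32851 promoter windows of the same length, 32.7% held a GC box and 12.4% a TATA box on either strand. The AP-1 motif TGANTCA, the cAMP response element TGACGTCA and a p53 half-site, present in 6.7%, 1.5% and 7.1% of all windows, had no match in these 4 windows. The motif CANNTG (E-box), which 66.2% of all windows hold, was found in Adamts2 (2 matches), Adamts9 (1) and Adamts12 (1). The share of G and C was 65.6%, 78.0%, 71.2% and 63.2% in Adamts1, Adamts2, Adamts9 and Adamts12, where the median window had 52.4%. CpG dinucleotides numbered 15, 34, 22 and 6 in the same order, with a median of 6 over all windows. These are descriptions of letters and do not show that a factor binds. A tie between motifs and the direction of these 4 genes was not tested.

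Adamts2 (chromosome 11, 50602084 to 50807573, plus strand), the procollagen I N-proteinase, had the highest level per kilobase of the 10 genes in both groups. It had 87.1, 92.9 and 81.4 CPM in senescent libraries and 228, 226 and 229 CPM in quiescent libraries. The quiescent libraries had a coefficient of variation of 0.651%, the senescent ones of 6.60%, and the groups did not overlap. The log2 fold change was -1.39 (SE 0.06), 2.61-fold lower.

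The other procollagen N-proteinase genes, which were not among the 10, went in opposite directions. Adamts3, known mainly for processing the lymphangiogenic factor VEGF-C, had 22, 34 and 32 counts in senescent and 220, 260 and 269 in quiescent libraries, and fell in senescent libraries by 2.90 on the log2 scale (SE 0.17, edgeR adjusted p = 2.7e-08). Adamts14 had 227, 196 and 255 counts in senescent and 60, 74 and 65 in quiescent libraries, and rose by 1.94 (SE 0.11, edgeR adjusted p = 2.6e-08). Adamts2 held nearly all of their summed level in both groups. Per kilobase, Adamts2 made up 95.1%, 95.3% and 94.2% of their summed level in senescent libraries, against 98.0%, 97.9% and 97.7% in quiescent libraries. The share of Adamts14 was 4.46%, 4.04% and 5.16% in senescent libraries, against 0.436%, 0.486% and 0.471% in quiescent libraries. The share of Adamts3 was 0.414%, 0.670% and 0.619% in senescent libraries, against 1.53%, 1.63% and 1.86% in quiescent libraries. Adamts14 was thus above Adamts3 in every senescent library and below it in every quiescent one.

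Adamts6 and Adamts10, a closely related pair whose products act on fibrillin microfibrils, differed in direction. Adamts6 (chromosome 13, 104287835 to 104496695, plus strand) had 9.36, 9.22 and 7.97 CPM in senescent libraries and 2.35, 2.40 and 2.07 CPM in quiescent libraries. It was the one gene of the 10 that was higher by more than 2-fold, with a log2 fold change of 1.96 (SE 0.09), or 3.88-fold. Adamts10 (chromosome 17, 33524204 to 33553782, plus strand) had 13.3, 13.0 and 12.6 CPM in senescent libraries and 46.8, 46.1 and 42.6 CPM in quiescent libraries. Its log2 fold change was -1.80 (SE 0.05), 3.49-fold lower, and neither gene's groups overlapped. Adamts6 over Adamts10, per kilobase, was 0.744, 0.751 and 0.671 in senescent libraries, against 0.0532, 0.0552 and 0.0513 in quiescent libraries. Adamts6 thus stayed below Adamts10 in every library, by much less in senescent ones. The size of this ratio depends on the length used, as Adamts10 has 8254 bases of exon but a longest transcript of 4121. With the longest transcript, senescent means were 1.15 CPM per kb for Adamts6 and 3.14 for Adamts10. The quiescent means were then 0.296 and 10.97 CPM per kb.

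Adamts7 and Adamts12, whose products cut cartilage oligomeric matrix protein, showed no separation of the groups. Adamts7 (chromosome 9, 90163069 to 90208071, plus strand) had 6.17, 6.93 and 8.63 CPM in senescent libraries and 8.32, 8.34 and 9.32 CPM in quiescent libraries. Senescent replicate 3 lay among the quiescent libraries, and the log2 fold change was -0.26 (SE 0.11), -0.40 without senescent replicate 3 and -0.15 without senescent replicate 1. Exons of Tbc1d2b on the other strand overlap those of Adamts7, and since the use of strand in counting is not stated, reads of these 2 genes may not have been told apart. Adamts12 (chromosome 15, 11064790 to 11349231, plus strand) had 10.3, 10.5 and 5.92 CPM in senescent libraries and 10.3, 11.0 and 8.61 CPM in quiescent libraries. Senescent replicates 1 and 2 were among the quiescent values and replicate 3 was below all of them. The log2 fold change was -0.17 (SE 0.22), and 0.06 without senescent replicate 3. The groups were not told apart at this spread, which does not show that the levels were equal.

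**Figure D2:**
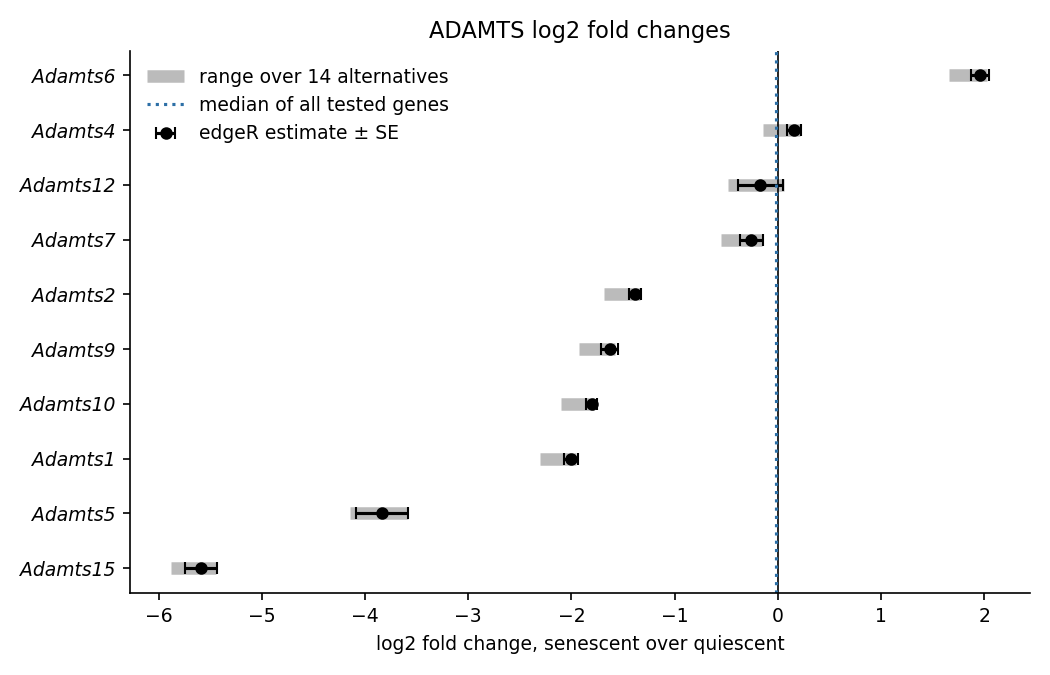
Log2 fold change of the 10 ADAMTS genes, senescent over quiescent, from the highest (Adamts6, 1.96) to the lowest (Adamts15, -5.59). Points are edgeR estimates with their standard error, grey bars span the 14 alternative settings, and the dotted line is the median of all tested genes, -0.02; only the bars of Adamts4 and Adamts12 cross 0.

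Set against gene length, the order of the 10 genes differed between the groups. Levels per kilobase of exon (union of the exons in GENCODE M21) were highest for Adamts2 in both, at 9.33 ± 0.615 CPM per kb in senescent and 24.4 ± 0.159 CPM per kb in quiescent libraries (SD, n = 3 each, as for all values of this kind). In senescent libraries Adamts1 came next at 4.01 ± 0.197 CPM per kb, then Adamts4 at 1.63 ± 0.0256, Adamts9 at 1.60 ± 0.169 and Adamts10 at 1.57 ± 0.0449, which lay within their spread of each other. Adamts7 at 1.15 ± 0.201, Adamts6 at 1.14 ± 0.0981 and Adamts5 at 1.13 ± 0.360 CPM per kb followed, again within their spread, before Adamts12 at 0.816 ± 0.237 and Adamts15 at 0.0521 ± 0.0115.

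In quiescent libraries Adamts1 at 16.1 ± 1.35 and Adamts5 at 16.1 ± 1.63 CPM per kb shared the place after Adamts2 within their spread. Adamts10 at 5.48 ± 0.271 and Adamts9 at 4.96 ± 0.434 CPM per kb came next and differed by about their spread. Adamts15 was at 2.48 ± 0.350, Adamts4 at 1.47 ± 0.115 and Adamts7 at 1.38 ± 0.0914 CPM per kb, the last pair within their spread. Adamts12 at 0.914 ± 0.114 and Adamts6 at 0.292 ± 0.0233 CPM per kb were the lowest. With the longest transcript as the length, Adamts10 moved to the third place and Adamts4 to the fifth in senescent libraries, while Adamts4 and Adamts7 changed places in quiescent libraries.

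**Figure D3:**
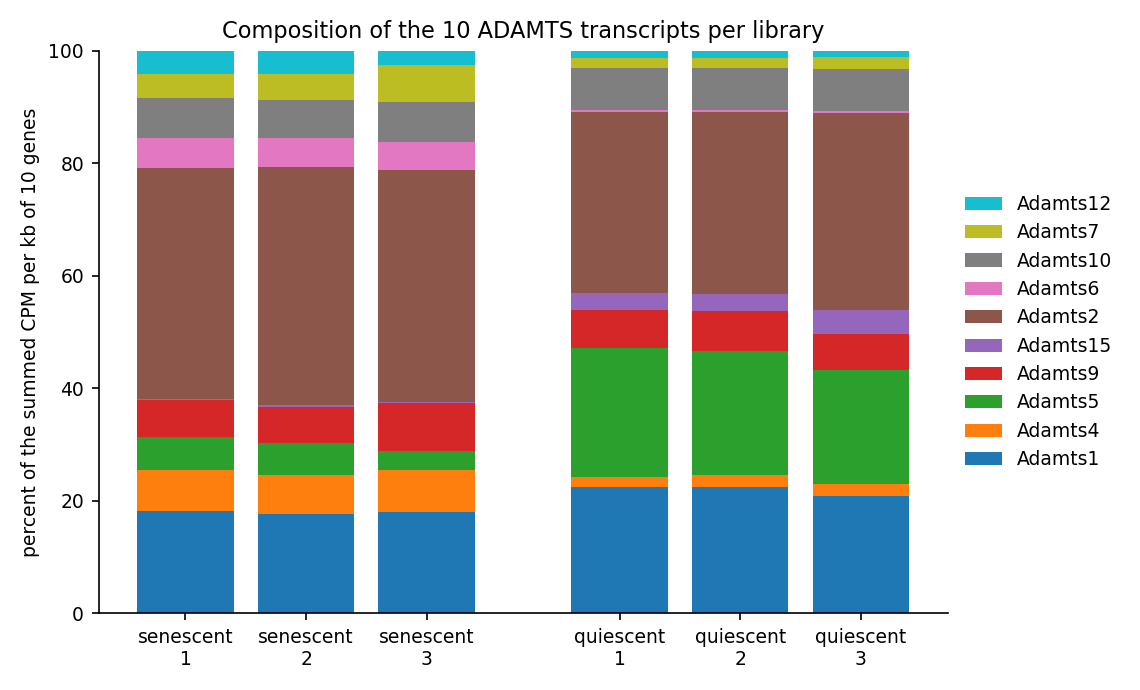
Share of each ADAMTS gene in the summed CPM per kb of the 10 genes (vertical axis, percent), 1 bar a library, senescent libraries on the left. Adamts5 takes 3.37% to 5.90% in senescent libraries and 20.4% to 22.9% in quiescent libraries, and Adamts2 takes the most in each.

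As a share of the 10 genes per kilobase, Adamts5 made up 4.97 ± 1.40% in senescent and 21.8 ± 1.28% in quiescent libraries. Adamts2 made up 41.6 ± 0.770% in senescent and 33.2 ± 1.66% in quiescent libraries. Adamts4 had a share of 7.29 ± 0.298% in senescent and 2.00 ± 0.158% in quiescent libraries, and Adamts6 one of 5.05 ± 0.218% in senescent and 0.396 ± 0.0157% in quiescent libraries. These shares are tied to each other, since a smaller share of one gene raises those of the rest. Adamts1, Adamts9 and Adamts10, all lower in level, had shares of 17.9 ± 0.259%, 7.18 ± 1.16% and 7.01 ± 0.254% in senescent libraries, against 21.9 ± 0.887%, 6.74 ± 0.331% and 7.45 ± 0.0373% in quiescent libraries. The shares of Adamts1 and Adamts10 were lower in every senescent library than in any quiescent one, and those of Adamts9 overlapped.

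**Figure D4:**
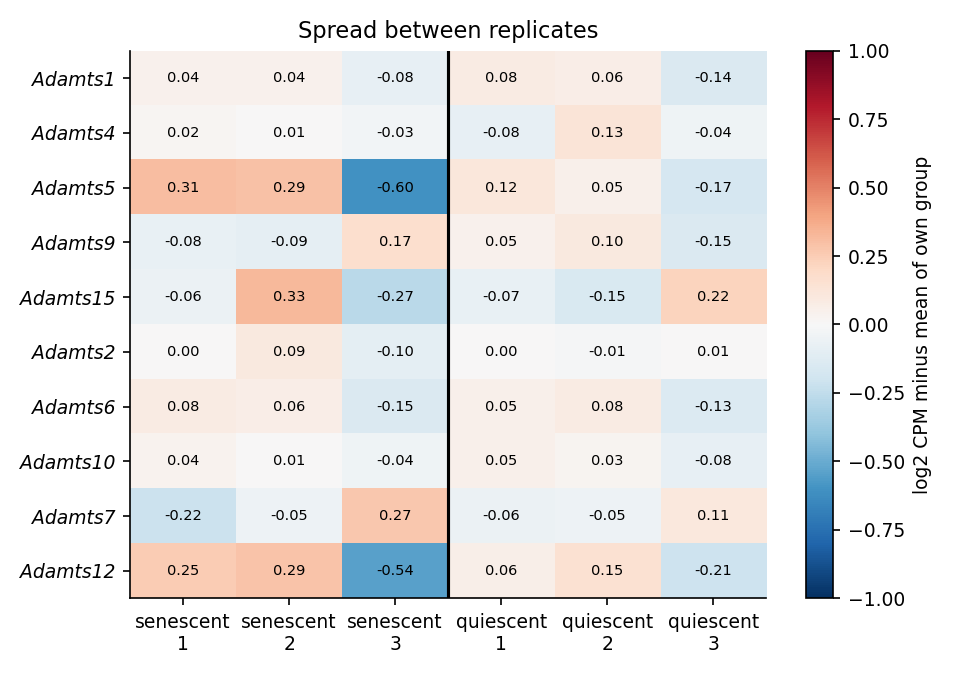
Log2 CPM of each ADAMTS gene in each library minus the mean of its own group (colour and number), senescent libraries left of the line. The largest deviations are those of senescent replicate 3 for Adamts5 (-0.60) and Adamts12 (-0.54), and Adamts7 is at 0.27 in that library. For Adamts15 senescent replicate 2 deviates most, at 0.325.

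The spread between replicates, which the choice of the genes did not rest on, was uneven in senescent libraries. Over all tested genes, log2 CPM had an SD from the group mean of 0.152, 0.183 and 0.21 in senescent replicates 1, 2 and 3. In quiescent libraries this SD was 0.128 to 0.139, so senescent replicate 3 had the widest spread over the whole table too. Senescent replicate 3 was below the mean of the other senescent libraries by 0.91 on the log2 scale for Adamts5 (difference -0.906) and by 0.81 for Adamts12 (difference -0.812), at 0.533 and 0.569 times that mean. Adamts7 was at 1.32 times and Adamts9 at 1.20 times that mean in the same library, Adamts15 was at 0.740 times and Adamts6 at 0.858 times, and Adamts1, Adamts2, Adamts4 and Adamts10 were at 0.904 to 0.974 times. The coefficient of variation ran from 1.57% (Adamts4) to 31.9% (Adamts5) in senescent libraries and from 0.651% (Adamts2) to 14.1% (Adamts15) in quiescent libraries. In senescent replicate 3 the smooth muscle and pericyte markers lay below the other senescent libraries to unequal degrees. Differences on the log2 scale were -0.56, -0.85 and -0.91 for Acta2, Myh11 and Lmod1. They were -0.59, -0.62 and -0.48 for Cnn1, Des and Mcam, and -0.18, -0.14 and -0.06 for Rgs5, Cspg4 and Notch3. Whether this bears on the ADAMTS values was not tested.

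The genes with the closest profiles were found by the Euclidean distance of log2 CPM over the 6 libraries, each gene centred on its mean, among 13224 named genes. For Adamts6 these were Gpr176, Samd4 and Wfs1, at distances of 0.141, 0.145 and 0.180 in log2 units. Their log2 fold changes were 1.97, 1.91 and 1.93, close to that of Adamts6. For Adamts15 they were Agtr2, Bmp3 and Gja5, at distances of 0.594, 0.707 and 0.793. Agtr2, which encodes an angiotensin receptor, had 3, 3 and 2 counts in senescent and 166, 189 and 175 in quiescent libraries. Bmp3, which encodes a bone morphogenetic protein, had 17, 27 and 24 counts in senescent and 1147, 1307 and 954 in quiescent libraries. Gja5, which encodes a connexin, had 6, 7 and 11 counts in senescent and 402, 467 and 487 in quiescent libraries. With 2 groups of 3 libraries such likeness mostly repeats the size of the difference between the groups.

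The remaining 9 ADAMTS genes and 6 lists of genes that work with the family were counted in edgeR's quasi-likelihood test, adjusted over all 14065 tested genes. These lists too were written with earlier results of these data known. Each count stands beside a whole table in which 36.7% of genes were higher and 37.8% lower, with a median log2 fold change of -0.02. Of the 9 other ADAMTS genes 4 passed the filter on low counts, of which 3 fell and 1 rose, with a median of -2.38. Besides Adamts3, Adamts8 and Adamts14 this was Adamts20, a versicanase gene with 12, 4 and 9 counts in senescent and 36, 32 and 35 in quiescent libraries (log2 fold change -1.85, SE 0.31, edgeR adjusted p = 1.8e-04). Adamts13, Adamts16, Adamts17, Adamts18 and Adamts19 had at most 10 counts in any library.

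Of 6 tested ADAMTS-like genes, which encode relatives without a protease domain, 5 fell and 1 rose, with a median of -1.12. Adamtsl3 averaged 6.41 ± 0.829 CPM in senescent and 30.1 ± 1.34 CPM in quiescent libraries (log2 fold change -2.23, SE 0.08, edgeR adjusted p = 1.8e-09), and Adamtsl1 fell by 1.36. Adamtsl2, whose product binds fibrillin and the latent form of TGF-beta, rose by 0.57 (edgeR adjusted p = 0.0037), and did not pass under library totals (0.27, edgeR adjusted p = 0.13).

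Few of the hyalectans and their link proteins passed the filter on low counts. Of 8 such genes 2 passed it, versican as lower and Hapln4 as higher. Vcan, the gene of versican, had 33.4, 30.5 and 31.7 CPM in senescent libraries and 41.8, 47.8 and 48.2 CPM in quiescent libraries, without overlap (log2 fold change -0.53, SE 0.06, edgeR adjusted p = 1.2e-05). Hapln4, a hyaluronan link protein gene, had 69, 54 and 35 counts in senescent and 14, 14 and 19 in quiescent libraries (log2 fold change 1.92, edgeR adjusted p = 1.5e-04). Acan, the gene of aggrecan, did not pass the filter and had 8, 1 and 8 counts in senescent and 2, 1 and 0 in quiescent libraries.

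Of 8 tested fibrillar procollagen genes 3 rose, 2 fell and 3 did not pass, with a median of -0.06. Col3a1 averaged 348 ± 46.2 CPM in senescent and 1342 ± 70.4 CPM in quiescent libraries (log2 fold change -1.95, SE 0.09, edgeR adjusted p = 1.0e-08), and Col1a2 fell by 0.47. Col5a3, a minor fibrillar chain, had 57.7, 53.4 and 97.6 CPM in senescent libraries and 4.40, 4.51 and 4.94 CPM in quiescent libraries (log2 fold change 3.91, SE 0.27, edgeR adjusted p = 1.5e-05), and Col5a1 rose by 0.70. Of the other genes of procollagen processing, 4 were tested. Tll1, a procollagen C-proteinase gene, had 19.7, 18.5 and 16.2 CPM in senescent libraries and 3.27, 3.13 and 2.41 CPM in quiescent libraries and rose by 2.62 on the log2 scale (edgeR adjusted p = 2.3e-08). Its relative Bmp1 rose by 0.38, a call lost under library totals (0.08, edgeR adjusted p = 0.33). Pcolce, which encodes an enhancer of the C-proteinase, fell by 1.12 (edgeR adjusted p = 5.4e-09), and Pcolce2 had a log2 fold change of 0.01 (SE 0.09) and changed sign with the scaling.

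**Figure D5:**
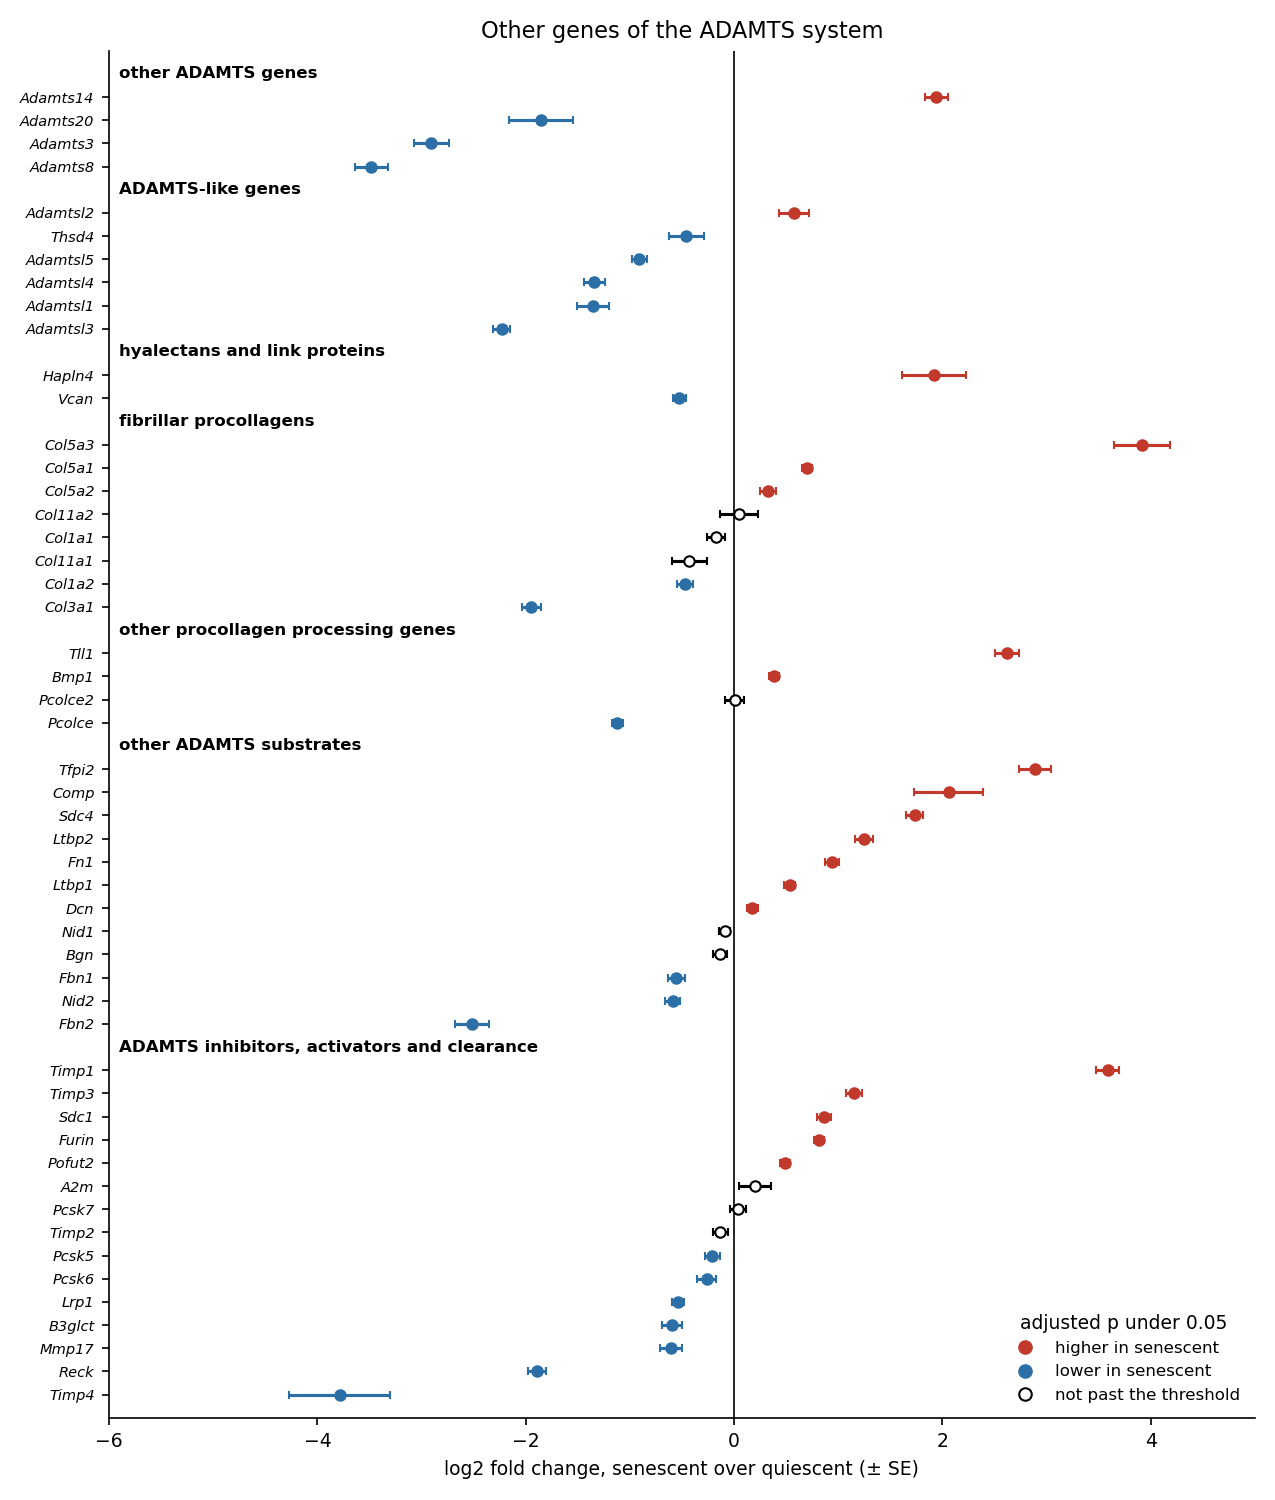
Log2 fold change (horizontal axis, senescent over quiescent, with standard error) of each tested gene in the 7 lists around the 10 ADAMTS genes; filled points passed the threshold and open points did not. Of the TIMP genes and Reck, Timp1 (3.59) and Timp3 (1.15) are higher and Timp4 (-3.79, at low counts) and Reck (-1.89) lower in senescent libraries. Timp2 (-0.13) did not pass.

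Of 12 other ADAMTS substrates 7 rose, 3 fell and 2 did not pass, with a median of 0.35. Tfpi2, a protease inhibitor gene, averaged 5.48 ± 1.06 CPM in senescent and 0.740 ± 0.0379 CPM in quiescent libraries (log2 fold change 2.89, SE 0.15, edgeR adjusted p = 2.7e-08). Comp, the substrate of the Adamts7 and Adamts12 products, had 31, 40 and 44 counts in senescent and 6, 18 and 7 in quiescent libraries (log2 fold change 2.06, edgeR adjusted p = 1.4e-04, and 2.66 without quiescent replicate 2). Fbn2, a fibrillin gene, fell by 2.52 (edgeR adjusted p = 6.3e-08) and Nid2, a basement membrane gene, by 0.59.

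Of 15 genes of inhibition, activation and clearance 5 rose, 7 fell and 3 did not pass, with a median of -0.13. Timp3, the gene of the main ADAMTS inhibitor, had 718, 685 and 622 CPM in senescent libraries and 318, 319 and 275 CPM in quiescent libraries (log2 fold change 1.15, SE 0.07, edgeR adjusted p = 7.2e-08). Timp1 averaged 281 ± 33.8 CPM in senescent and 23.3 ± 2.52 CPM in quiescent libraries (log2 fold change 3.59, SE 0.11, edgeR adjusted p = 3.6e-09). Reck, which encodes a membrane-anchored protease inhibitor, had 5.63, 5.98 and 4.56 CPM in senescent libraries and 20.2, 20.8 and 18.9 CPM in quiescent libraries and fell by 1.89 (edgeR adjusted p = 9.1e-09). Timp4 had 1 count in each senescent library and 13, 21 and 18 counts in quiescent libraries (log2 fold change -3.79, SE 0.49, edgeR adjusted p = 2.4e-05).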

How the data were processed

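The authors deposited raw counts, 1 row a gene symbol and 1 column a library. Per the labels' protocols, ribosomal RNA was removed before directional libraries were sequenced as pairs of 100 bp. The rows treated as ribosomal still held 79.8% to 82.8% of the counts. The submitters' processing notes name mm10, edgeR 3.32.1 and limma 3.46.0 but no role for them. The sources used here state no aligner, no counter, and neither strand use nor the handling of multiply mapped reads.

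From these counts, genes were kept with filterByExpr (minimum count 10), scaled with TMM and tested with edgeR 4.0.16 in R 4.3.3 by a robust quasi-likelihood fit, adjusted by Benjamini-Hochberg over 14065 genes at a threshold of 0.05. All 6 libraries entered, with the group as the only term. Standard errors are the log2 fold change over the square root of F. Log2 CPM used a prior count of 2. Alternatives were other scalings, no filter, leaving out the ribosomal rows, DESeq2 1.42.0, limma-voom (limma 3.58.1), a replicate block and each library left out. The test was tried on simulated counts. Positions and lengths came from GENCODE M21 (GRCm38, the assembly mm10 names), and motifs were searched on both strands of RefSeq windows. Counts carry no molecular identifiers, so depth covers counting error only.

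Members and lists were chosen with earlier results of these data known. Named genes were all members; up to 2 passing genes with the highest and 2 with the lowest log2 fold change per list; lists with 5 or fewer tested genes in full; the 3 closest profiles of the highest and lowest member; and Cdkn1a, Mdm2 and Mki67. Acan, Fn1, Pdgfra, Sox9, Flt1, Tek, Krt19, Ptprc, Cd14, Timp2 and the smooth muscle and pericyte markers were named after their values were seen. The repeat table was not used here.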

Additional observations from a re-analysis of the deposited data

How the results depend on the processing

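Under 14 alternatives, 8 of the 10 ADAMTS genes kept the sign of their log2 fold change; Adamts4 turned under library totals (-0.15) and Adamts12 without senescent replicate 3 (0.06), and in none of the 10 did a call change direction. Scaling by library totals put the median of all genes at a log2 fold change of -0.32, against -0.02 with TMM, and the split at 2952 higher and 7435 lower genes, against 5158 and 5316. It also left 0 ADAMTS-like genes higher, 4 fibrillar procollagens lower, 5 other substrates lower, and 1 other procollagen processing gene higher and 2 lower. Upper quartile factors gave 4 fibrillar procollagens and 5 other substrates lower, and RLE size factors 2 of the 10 ADAMTS genes higher (Adamts4 and Adamts6). Between 1 and 2 of the 10 were higher with any single library left out, Adamts4 being the second without senescent replicate 3 or quiescent replicate 2. Adamts7 was lower as 1 of 7 genes under library totals, upper quartile factors, limma-voom and the block and without senescent replicate 3. Without a filter 3, and in DESeq2 2, hyalectan and link protein genes were higher. Pcolce2, not called in the reported fit, was called lower under library totals (log2 fold change -0.29, edgeR adjusted p = 0.015). It was negative without a call under upper quartile factors (-0.089), without senescent replicate 3 (-0.022) and without quiescent replicate 1 (-0.076). Its highest value was 0.076, without quiescent replicate 2. The cause was not tested in these cases. With a replicate block, 5124 genes were higher and 5281 lower, 1 ADAMTS gene was higher and 7 lower, and 4 fibrillar procollagens were lower. Deviations of same-numbered libraries from their group means correlated by 0.051, -0.010 and 0.058, and not every library correlated best with its own number. With 3 libraries a group, these values cannot decide whether same-numbered libraries share a culture or an animal. Low counts limit Timp4, Comp, Hapln4 and Adamts20.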
